A study of Mus musculus with 14 samples.

Results

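The genes described here are the 3 Id genes Id1, Id2 and Id3, the BMP ligand gene Bmp4 and the BMP receptor gene Bmpr1a, 5 of 22367 protein-coding genes annotated on mm9 (GENCODE vM1). They were chosen by name, and every peak of 8 ChIP-Seq peak lists whose centre lay within 100 kb of a gene body was taken as belonging to that gene. This gave 37 of the 24416 peaks of the 8 lists. The chromatin came from mouse embryonic stem (ES) cells grown for 26 hours without tetracycline. A Sim2-FLAG transgene at the ROSA-TET locus was switched on by that withdrawal in the clones A6, B8 and C4, which overexpress SIM2 from a modified human CMV promoter. The anti-FLAG ChIP was made in these 3 clones, the replicates of SIM2 binding, and in their parent EB3, which lacks the construct and served as the control for the antibody. The lists of NANOG, OCT4 and the Mediator subunits MED1 and MED12 used here come from A6, with 1 library each, and the binding of these factors in EB3 was not analysed here.

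BMP ligands such as BMP4 bring type I and type II receptor kinases together at the cell surface. BMPR1A is a type I receptor. The active receptor phosphorylates SMAD1, SMAD5 and SMAD9, which enter the nucleus with SMAD4 and activate targets, the Id genes prominent among them. ID proteins hold a helix-loop-helix without a DNA-binding basic region and sequester E proteins, the partners of bHLH activators. In mouse ES cells BMP4 acts with LIF to maintain self-renewal, and induction of Id genes is part of that response. SIM2 is a bHLH-PAS transcription factor encoded on human chromosome 21 that binds DNA with ARNT. NANOG and OCT4 are core pluripotency factors, and Mediator links enhancer-bound factors to RNA polymerase II.

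Peaks of any clone or factor whose centres lay within 100 bp of the next were joined into 1 bound place, and the factors there were counted out of NANOG, OCT4, SIM2, MED1 and MED12. The 37 peaks formed 22 bound places, and the 5 with either SIM2 in at least 2 clones or at least 3 factors are given here as mm9 sequence, because the comparisons turn on them. Each line holds 200 bases around the mean centre of the peaks, read 5′ to 3′ on the plus strand. Capitals mark the motif matches described after the sequences.
Id3 downstream place: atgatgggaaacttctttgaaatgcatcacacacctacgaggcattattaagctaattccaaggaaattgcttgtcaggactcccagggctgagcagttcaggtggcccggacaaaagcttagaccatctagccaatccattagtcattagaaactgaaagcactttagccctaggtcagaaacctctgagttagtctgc
Bmpr1a distal place: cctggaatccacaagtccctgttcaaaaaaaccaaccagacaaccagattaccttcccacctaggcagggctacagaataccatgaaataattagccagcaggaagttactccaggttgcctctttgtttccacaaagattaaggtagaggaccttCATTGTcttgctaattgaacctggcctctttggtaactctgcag
Bmp4 upstream place: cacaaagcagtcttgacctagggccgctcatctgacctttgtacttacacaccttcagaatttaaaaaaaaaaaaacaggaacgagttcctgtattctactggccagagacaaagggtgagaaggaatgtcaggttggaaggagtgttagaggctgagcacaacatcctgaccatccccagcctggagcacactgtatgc
Id2 upstream place: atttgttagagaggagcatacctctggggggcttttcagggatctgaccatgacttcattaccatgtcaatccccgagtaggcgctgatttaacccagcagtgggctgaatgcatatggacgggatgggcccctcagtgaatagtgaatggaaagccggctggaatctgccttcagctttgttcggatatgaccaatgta
Id3 distal place: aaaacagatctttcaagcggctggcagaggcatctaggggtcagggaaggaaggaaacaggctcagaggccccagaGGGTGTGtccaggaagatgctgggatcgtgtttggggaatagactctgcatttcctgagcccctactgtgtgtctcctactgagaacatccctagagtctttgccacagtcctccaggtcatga
The Id3 downstream place lies at chr4:135702774-135702973, past the 3′ end of Id3 and outside any annotated gene. The Bmpr1a distal place is at chr14:35173150-35173349, an intergenic stretch past the 3′ end of Bmpr1a. The Bmp4 upstream place at chr14:47011542-47011741 and the Id2 upstream place at chr12:25809540-25809739 are also intergenic. The Id3 distal place at chr4:135733275-135733474 is in an intron of E2f2, which encodes a cell cycle transcription factor. Id1 and Id3 are read on the plus strand of their chromosomes, and Id2, Bmp4 and Bmpr1a on the minus strand.

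These windows held few of the motifs searched as exact letters on both strands. CATTGT, a core bound by SOX proteins, occurred in 1 of the 5 windows, the Bmpr1a distal place. No other letters that SOX proteins may bind were searched on their own. This core was present in 21.7% of the 14815 windows of the same length around NANOG peaks and in 19.9% of the 1229 windows around SIM2 sites found in at least 2 clones. GGGTGTG, a core of KLF sites, occurred in the Id3 distal place only, against 8.22% and 9.85% of these windows. None of the 5 windows held the octamer ATGCAAAT (6.96% of NANOG windows and 7.4% of SIM2 windows), the SIM2-ARNT type element TACGTG (1.19% and 3.50%) or its inner core ACGTG, which overlaps it (5.41% and 14.1%). The BMP response core GGCGCC (0.553% and 1.14%) and the SMAD box GTCTAGAC (0.202% and 0.163%) had no match either. An absent match says only that these letters are not in these windows. The G and C content was 45% at the Id3 downstream and Bmpr1a distal places, 47.0% at Bmp4, 50% at Id2 and 53.5% at the Id3 distal place. The median was 43.0% around NANOG peaks and 47.5% around SIM2 sites.

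Peak height is given below as the normalized tag count that the peak caller wrote for each peak. In the NANOG list this value was not proportional to total tags, since peaks with 12 tags had 3.9 near Id2 and 5.4 near Id3. It was compared only within a list, since the lists differ in scale, and its standing is given as the rank in the list, with the highest as 1 and tied peaks sharing the better rank. Total tags are whole read counts for B8, C4, NANOG, MED1 and MED12, and their exact Poisson intervals at 95% cover counting error only. These intervals do not apply to the normalized tag count or its rank. The lists hold only peaks above the caller's threshold, so a gene without a listed peak may still be bound below it. The median peak held 12 to 20.4 tags, depending on the list. No test was made between genes or factors, because each factor other than SIM2 had 1 library.

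All 5 genes had at least 1 NANOG peak, which 67.6% of protein-coding genes had. MED12 was present at 4 of the 5 genes (Id1, Id3, Bmp4 and Bmpr1a) against 10.9% of all genes, and OCT4 at 3 (Id3, Bmp4 and Bmpr1a) against 21.8%. MED1 was found at Bmp4 alone, with 7.98% of all genes having a peak. SIM2 in A6 was present at 4 genes (all but Id1), and 23.0% of genes had an A6 peak. B8 had peaks at Id2 and Id3, beside 19.8% of genes. C4 had one at Id3 alone, beside 6.06%. The FLAG ChIP in EB3 had no peak at any of the 5 genes, with 1.14% of all genes having one. The nearest EB3 peak was 0.295 Mb from Id1 and farther from the other 4 genes. With only 5 genes, chosen with results of these data known, these shares describe the loci and were not tested against the background.

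**Figure D1:**
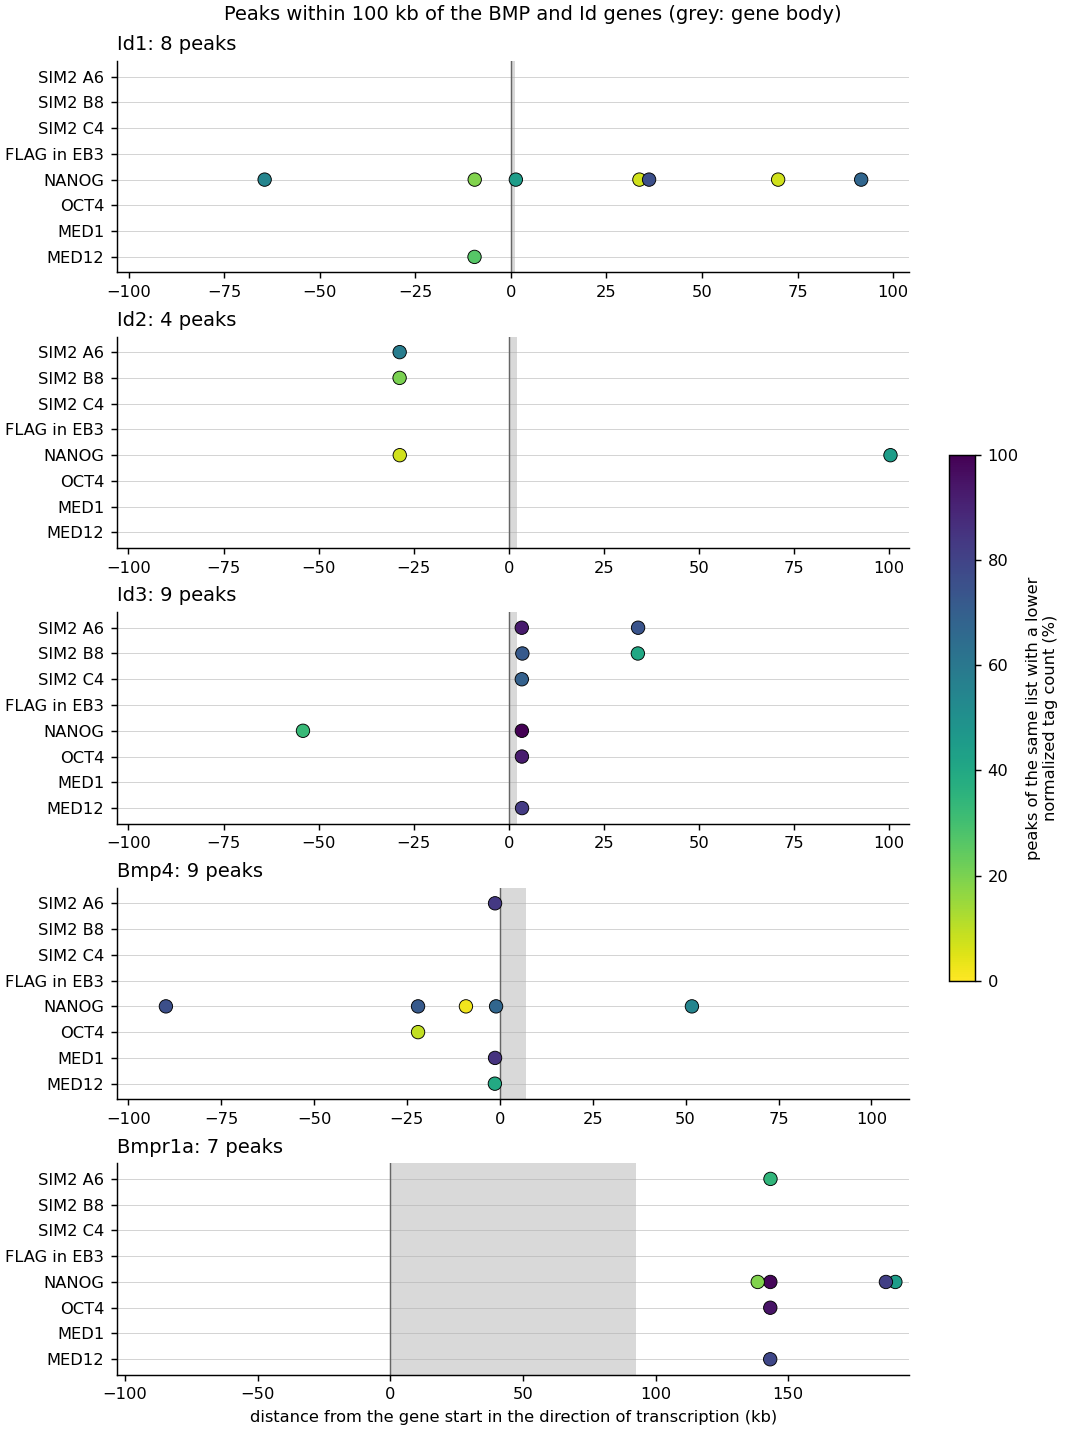
Peaks of the 8 lists (rows) within 100 kb of the 5 genes, by distance from the gene start in kb in the direction of transcription; each point is 1 peak, coloured by the percentage of peaks in its own list with a lower normalized tag count, and the gene body is grey. Peaks of several lists are stacked next to the 3′ end of Id3, upstream of Bmp4 and Id2 and past the 3′ end of Bmpr1a, whereas Id1 has 7 NANOG peaks and 1 MED12 peak.

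Bmp4, the ligand of the group, lies at chr14:47003195-47010344 and had 9 peaks, a number that 7.93% of protein-coding genes reached or exceeded. Its SIM2 peak was in A6, 1.28 kb upstream of the start, with a normalized tag count of 16.3 and a signal 10.73 times the input. It ranked 367 of 2387 in A6. B8 and C4 had no peak within 100 kb of Bmp4, so this SIM2 peak is in 1 of 3 clones.

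The same place upstream of Bmp4 carried both Mediator subunits. The centre of the MED1 peak lay 1 bp from that of SIM2 in A6, and it held 24 tags (95% interval 15.4 to 35.7), a normalized tag count of 9.5 and rank 102 of 762. MED12 was centred 49 bp from SIM2, with 18 tags (10.7 to 28.4), a normalized tag count of 6.0 and rank 513 of 1071. MED1 therefore stood in the upper part of its list here, whereas MED12 was at the median normalized tag count of its own, 6.0.

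NANOG was centred 272 bp from the A6 peak, 1.01 kb upstream of the Bmp4 start, with 25 tags (16.2 to 36.9), a normalized tag count of 8.5 and rank 4147 of 14815. At a linking distance of 100 bp it formed a separate place. The combination of SIM2, MED1 and MED12 with neither NANOG nor OCT4 was found at 3 of 17177 places in the genome (0.0175%), while SIM2, MED1 and MED12 were together at 178 places, 172 of them with NANOG. This combination at Bmp4 depended on how peaks were joined. When peaks with edges within 100 bp were joined instead, the NANOG peak entered the place, which then had 4 factors, and 0 places in the genome had SIM2, MED1 and MED12 alone.

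Farther upstream of Bmp4, an OCT4 peak and a NANOG peak had centres 2 bp apart at 22.0 kb. The OCT4 peak ranked low, 2124 of 2532, with a normalized tag count of 3.8. NANOG there had a normalized tag count of 9.3 and ranked 3562 of 14815. The remaining 3 NANOG peaks of the locus were bound alone, at 9.12 kb and 89.9 kb upstream of the start and at 51.7 kb in the direction of transcription, with normalized tag counts of 3.1, 10.1 and 7.0. The last of these was nearest to the start of Gm15217. All peaks at Bmp4 were intergenic.

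Bmpr1a, the type I receptor gene, spans chr14:35223920-35316527 and had 7 peaks, as many or more than which were found at 12.9% of protein-coding genes. None lay in the gene body or upstream of it. A place with 4 factors was found 143 kb from the start, between 50.6 and 50.7 kb past the 3′ end. The nearest gene start there was that of Fam25c, not Bmpr1a, and 6 protein-coding genes had this place within 100 kb.

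At the Bmpr1a distal place NANOG held 54 tags (40.6 to 70.5), with a normalized tag count of 26.3, a signal 24.89 times the input and rank 244 of 14815. OCT4 had a normalized tag count of 10.1 and ranked 116 of 2532. MED12 held 24 tags (15.4 to 35.7), with a normalized tag count of 8.6 and rank 186 of 1071. These 3 factors were therefore in the upper part of their lists.

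SIM2 in A6 was weaker by rank at this place. It had a normalized tag count of 10.3 and ranked 1391 of 2387, below the median of its list, and B8 and C4 had no peak. The A6 centre lay 59 bp from NANOG, and NANOG, OCT4 and MED12 lay within 50 bp of one another. With a linking distance of 50 bp SIM2 separated from the other 3 factors. The other NANOG peaks had normalized tag counts of 4.6 at 139 kb from the start, and of 11.6 and 6.2 at 187 and 190 kb, where they were in introns of Glud1, the gene of mitochondrial glutamate dehydrogenase.

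Among the Id genes, Id3 had the strongest binding by rank. The gene lies at chr4:135699412-135701670 and had 9 peaks, 6 of them at 1 place 3.46 kb from the start, with centres 1152 to 1308 bp past the 3′ end and nearest to the start of Id3 itself. NANOG there held 99 tags (80.5 to 121), with a normalized tag count of 38.7 and a signal 45.63 times the input. This peak ranked 40 of 14815, the highest standing of any peak at the 5 genes.

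SIM2 was listed in all 3 clones at the Id3 downstream place. The A6 peak had a normalized tag count of 20.6, a signal 13.55 times the input and rank 163 of 2387. In C4 the peak held 13 tags (6.92 to 22.2), with a normalized tag count of 5.9 and rank 126 of 631. The B8 peak held 15 tags (8.40 to 24.7), with a normalized tag count of 6.1 and rank 410 of 2137.

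The 3 clones were not centred on the same point. A6 and C4 were 10 bp apart, whereas B8 was centred 156 bp from A6 and 146 bp from C4. Joining the clones' peaks at 100 bp therefore gave a SIM2 site in A6 and C4, and B8 was a separate site. At 200 bp the 3 clones made 1 site. Sites in A6 and C4 without B8 were 41 of the 1229 found in at least 2 clones.

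OCT4 and MED12 were also at the Id3 downstream place. OCT4 had a normalized tag count of 9.5 and ranked 165 of 2532. MED12 held 32 tags (21.9 to 45.2), with a normalized tag count of 9.3 and rank 155 of 1071. MED1 had no peak there. NANOG, OCT4 and MED12 centres were within 45 bp of one another, and the A6 centre lay 27 bp from NANOG.

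A second SIM2 site of Id3, the distal place, lay 34.0 kb from the start in the intron of E2f2, whose start was the nearest. A6 had a normalized tag count of 14.2 and ranked 556 of 2387. B8 held 11 tags (5.49 to 19.7), with a normalized tag count of 4.8 and rank 880 of 2137. By normalized tag count 40.2% of the B8 list was lower, but only 2.95% by fold over input and 0% by the caller's score. The 2 centres were 61 bp apart, so that with a joining distance of 50 bp this was no longer a site in 2 clones. C4 had no peak, and the nearest NANOG peak was 30525 bp away. SIM2 alone was found at 1426 places in the genome (8.30%). The remaining peak of Id3 was NANOG at 54.1 kb upstream, with a normalized tag count of 5.4 and rank 8199, nearest to the start of the ribosomal protein gene Rpl11.

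Id2, at chr12:25778666-25780957, had 4 peaks, the fewest of the 5 genes and a number that 28.0% of protein-coding genes reached or exceeded. Its SIM2 site lay 28.7 kb upstream, where the start of Id2 was the nearest. A6 had a normalized tag count of 12.0 and ranked 909 of 2387, at 7.9 times the input. B8 was centred 19 bp away with 15 tags (8.40 to 24.7), a normalized tag count of 4.1 and rank 1278 of 2137. By normalized tag count 20.3% of the B8 list was lower than this peak, but 59.9% by the caller's score and 67.4% by fold over input.

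NANOG at the same place of Id2 held 12 tags (6.20 to 21.0), with a normalized tag count of 3.9 and rank 11998 of 14815. It thus stood low in its list, in contrast to the NANOG peak at Id3. C4, OCT4, MED1 and MED12 had no peak within 100 kb of Id2. The other NANOG peak, with a normalized tag count of 6.2, was 98096 bp past the 3′ end, in an intron of Kidins220, which encodes a membrane scaffold of neurotrophin receptors.

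Id1, at chr2:152561987-152563146, had 8 peaks, none of SIM2, OCT4 or MED1. Its 7 NANOG peaks were a number that 2.73% of protein-coding genes reached or exceeded, the highest NANOG count of the 5 genes. These peaks had normalized tag counts from 3.9 to 10.1 and ranks from 3092 to 11998 of 14815, so that between 7.37% and 76.0% of the list was lower. Of the 7, 4 were in introns of Bcl2l1, which encodes an inhibitor of apoptosis, and 1 was in an intron of H13, which encodes a signal peptide peptidase. The NANOG peak nearest the gene was centred 140 bp past the 3′ end, with 15 tags (8.40 to 24.7) and a normalized tag count of 6.2.

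The only place of Id1 with more than 1 factor was 9.48 kb upstream. NANOG there held 11 tags (5.49 to 19.7), with a normalized tag count of 4.6 and rank 9986. MED12 held 16 tags (9.15 to 26.0), with a normalized tag count of 5.3 and rank 648 of 1071, 48 bp from NANOG. NANOG with MED12 and no other factor occurred at 117 places in the genome (0.681%).

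**Figure D2:**
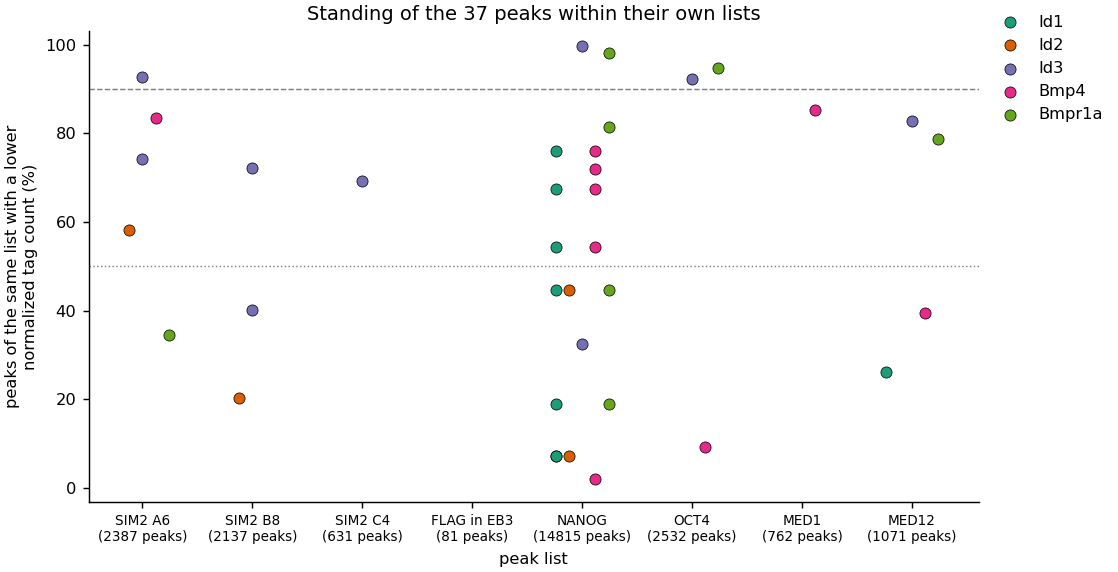
Standing of the 37 peaks in their own lists: for each list (horizontal axis, with its number of peaks), the percentage of peaks with a lower normalized tag count (vertical axis), 1 point per peak, coloured by gene; the dotted and dashed lines are at 50% and 90%, and 2 Id1 points in the NANOG list coincide at 7.37%. The 5 points above the dashed line are NANOG and OCT4 at Id3 and Bmpr1a and SIM2 in A6 at Id3, and the Id1 peaks lie at 76.0% or lower.

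The peaks that stood in the top 10% of their lists were 5 of 37, all at the Id3 downstream and Bmpr1a distal places. At Id3 they were NANOG, OCT4 and SIM2 in A6, with 99.7%, 92.3% and 92.8% of their lists lower. At Bmpr1a they were NANOG and OCT4, with 98.2% and 94.7% lower. The 20 NANOG peaks together had a median of 49.5%, the middle of the list.

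**Figure D3:**
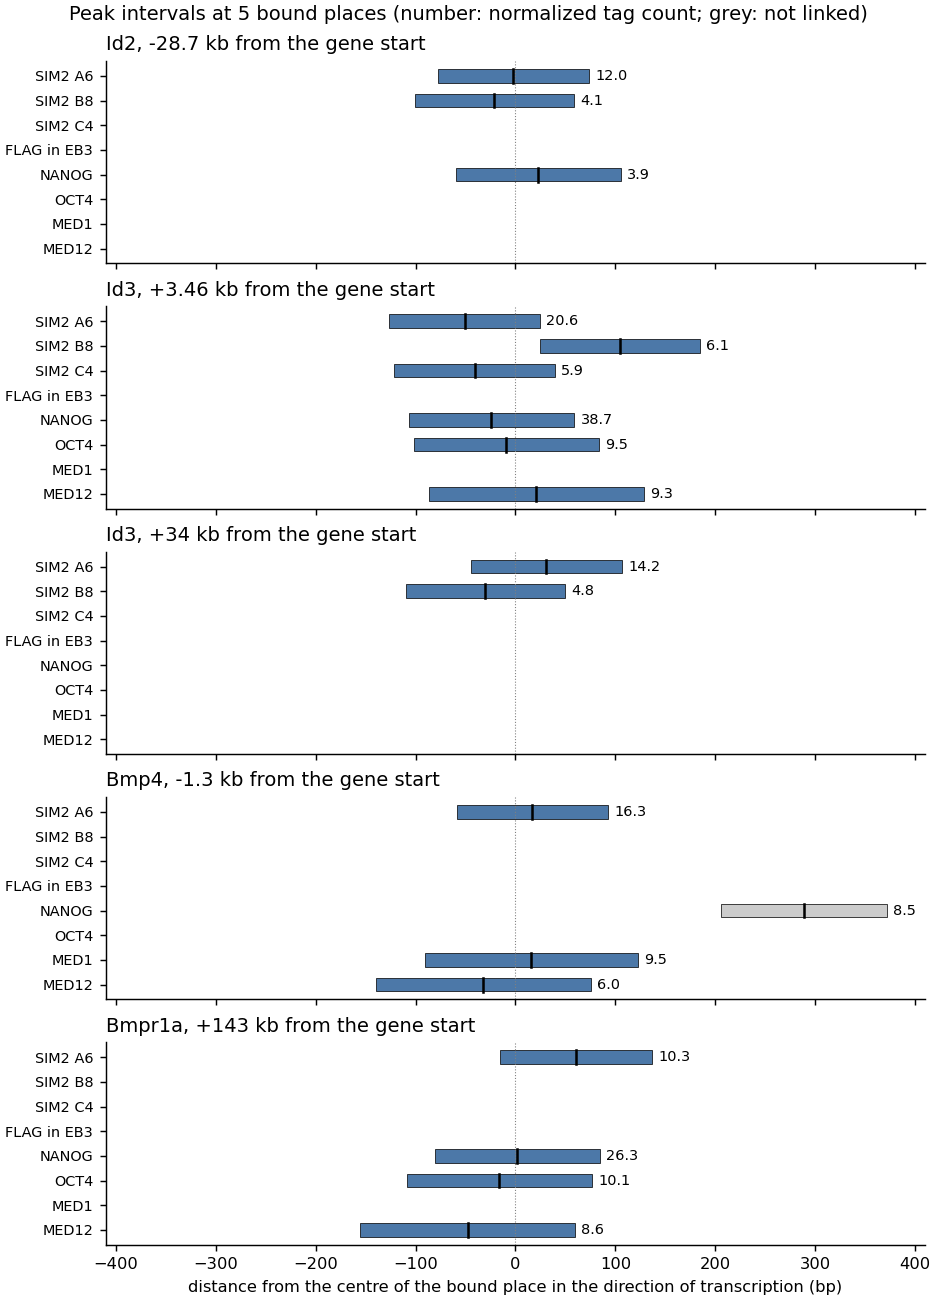
Peak intervals (bars) and centres (black ticks) of each list at the 5 bound places, by distance in bp from the mean centre in the direction of transcription, with normalized tag counts printed beside the bars; grey marks a peak not joined to the place at 100 bp. The B8 interval at Id3 begins where the A6 interval ends, and the NANOG interval at Bmp4 lies to the side of those of SIM2, MED1 and MED12.

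Places with at least 2 factors were 6 of the 22 at the 5 genes, beside 21.0% of all 17177 places. There were 2 at Bmp4 and 1 at each of the other 4 genes, and 29.3% of protein-coding genes had at least 1. With only peaks at least 8 times the input, a cut above the median fold of every list, 2 such places were left. Places with at least 4 factors, 2.74% of all, were the Id3 downstream place and the Bmpr1a distal place, and 5.72% of protein-coding genes had such a place. Of the other 16 places, 15 were of NANOG alone and 1 of SIM2 alone. The start of one of the 5 genes was the nearest at 9 of the 22 places.

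Both places with 4 factors held the combination of NANOG, OCT4, SIM2 and MED12, found at 239 places in the genome (1.39%). Within those 239, NANOG at Id3 ranked 9 and at Bmpr1a 53, against a median normalized tag count of 19.4. OCT4 ranked 42 and 30, against a median of 6.3, and MED12 ranked 26 and 36, against a median of 6.0. SIM2 in A6 separated the pair, as it ranked 31 at Id3 and 154 at Bmpr1a among the 207 places with an A6 peak, where the median was 12.4. Each place thus exceeded the typical place of its kind for NANOG, OCT4 and MED12, and the one at Id3 also for SIM2.

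The centres followed one order along the chromosome at both places, with SIM2 of A6, then NANOG, OCT4 and MED12. The same order on either strand was found at 24 of the 207 such places with an A6 peak (11.6%, Wilson 95% interval 7.92 to 16.7). The order was read from these places before it was counted, and no expected share was set beside it. NANOG and OCT4 centres were 15 bp apart at Id3 and 18 bp at Bmpr1a, little beside peak widths of 166 and 186 bp. The distance from the A6 centre to NANOG was 27 bp at Id3 and 59 bp at Bmpr1a, and its median over the 207 places was 38 bp.

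Coincidence within 100 bp was also counted from the side of each list. Of the 20 NANOG peaks at the 5 genes, 3 had OCT4, compared with 15.1% of all 14815 NANOG peaks (14.5 to 15.7). Likewise 3 had MED12, compared with 5.08% (4.73 to 5.44), and 3 had SIM2 of A6, compared with 10.4% (9.94 to 10.9). All 3 OCT4 peaks had NANOG, as did 88.2% of all OCT4 peaks (86.9 to 89.4). Of the 5 A6 peaks, 2 had a B8 peak, and the genome-wide share was 49.1% (47.1 to 51.1). The intervals are Wilson intervals at 95%, and the peaks at 1 gene share a locus and were not treated as independent.

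SIM2 sites found in at least 2 clones and not in EB3 numbered 3 at the 5 genes, 2 at Id3 and 1 at Id2, and 13.4% of protein-coding genes had at least 1 such site. Each rested on A6 together with 1 other clone, B8 at Id2 and at the Id3 distal place and C4 at the Id3 downstream place. Over the genome, 346 of the 1229 sites were in all 3 clones, and by this joining none was at the 5 genes. Another 829 were in A6 and B8 only, 41 in A6 and C4 only, and 13 in B8 and C4 only. Nearly all sites in at least 2 clones thus included A6, not only those at the 5 genes. At Bmp4 and Bmpr1a the SIM2 peak was found in A6 only, the same clone in which NANOG, OCT4 and Mediator were measured. The C4 list was the shortest, with 631 peaks against 2137 in B8 and 2387 in A6, and the part of this in the counts per clone was not tested. Without A6 there were 0 sites in at least 2 clones, without B8 1 and without C4 2. With only peaks at least 8 times the input, a cut above the median fold of every list, there were 0. Joining at 50 bp left 2, without the Id3 distal place.

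**Figure D4:**
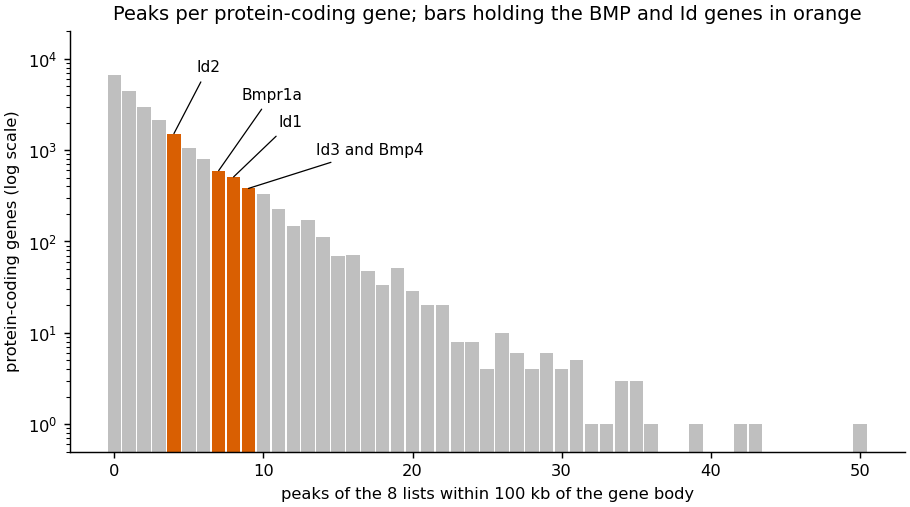
Number of protein-coding genes (vertical axis, log scale) by the number of peaks of the 8 lists within 100 kb of the gene body (horizontal axis), with the bars that hold the 5 genes in orange. Id2 with 4 peaks, Bmpr1a with 7, Id1 with 8 and Id3 and Bmp4 with 9 lie above the median gene, which has 2, and far from the maximum of 50.

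The gene windows differ in length, since the body of Bmpr1a is 92.6 kb long and the Id1 body 1.16 kb. Scaled by window, the peaks per megabase were 44.5 at Id3, 43.4 at Bmp4, 39.8 at Id1, 23.9 at Bmpr1a and 19.8 at Id2. The windows also held other protein-coding genes, 7 at Bmpr1a, 4 at Id1, 3 at Id3 and 1 each at Id2 and Bmp4, and peaks were not assigned to one gene over another.

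A further 29 genes of the BMP pathway gave the context. Of these, 23 had at least 1 peak (79.3%, beside 70.6% of all protein-coding genes) and 8 had a SIM2 site in at least 2 clones (27.6%, beside 13.4%). For NANOG (21 genes, 72.4% beside 67.6%), OCT4 (7 genes, 24.1% beside 21.8%), SIM2 in C4 (2 genes, 6.9% beside 6.06%) and MED1 (2 genes, 6.9% beside 7.98%) the share was near that of all genes. A6 peaks were at 11 genes (37.9% beside 23.0%), B8 peaks at 10 (34.5% beside 19.8%) and MED12 peaks at 5 (17.2% beside 10.9%). EB3 had none, beside 1.14%. The 8 genes with a SIM2 site were 2 of 6 ligands, 2 of 6 receptors, 1 of 4 SMADs, 2 of 9 inhibitors and 1 of 4 targets. These shares were not tested, and the share with a SIM2 site rested on A6 and B8, since 2 genes had such a site without A6, 2 without B8 and 8 without C4. Over the genome, 829 of the 1229 such sites were likewise in A6 and B8 without C4.

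Of the ligands, Gdf3, which encodes a TGF-beta family ligand of early embryos, had 2 sites, both in A6 and B8. The site 1.5 kb from the Gdf3 start, in its intron, had SIM2 with NANOG and OCT4, where A6 ranked 1938 of 2387 and OCT4 1107 of 2532. A MED12 peak of rank 312 of 1071 lay beside this site, 1.34 kb from the start, and joining at 100 bp left it out. The other Gdf3 site, 92.9 kb upstream, was nearest to the start of Nanog and had SIM2 with OCT4, MED1 and MED12, with MED12 at rank 104 of 1071. A NANOG peak of rank 8199 of 14815 lay beside this site, 92.6 kb upstream, together with another A6 peak. Joining at 100 bp left both out. Bmp7, a ligand with roles in kidney and eye, had a site 70.2 kb upstream with NANOG, in an intron of Rae1 and nearest to the start of Rbm38.

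Of the receptors, Bmpr1b, the other classical type I BMP receptor, had a site 320 kb from its start, in its own intron. There the NANOG peak had a normalized tag count of 22.5 and ranked 441 of 14815, with OCT4 at rank 227 of 2532 and A6 at rank 909 of 2387. Acvrl1, a type I receptor of endothelial cells, had a site 46.2 kb upstream, nearest to the start of Ankrd33, with NANOG. The type II receptor gene Bmpr2 is named because it missed the rule narrowly, and it was chosen after its values were seen. It had A6 and B8 peaks 137 bp apart, the A6 peak with NANOG, OCT4 and MED12, in an intron of Nop58.

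Among the SMADs, Smad4, the common partner, had a site 11.8 kb upstream that held SIM2 alone, with A6 at rank 1391 of 2387. Smad7, an inhibitory SMAD that is itself induced by the pathway, had the highest-ranking A6 and C4 peaks of the 29 genes. Its site 6.64 kb upstream was in all 3 clones, where A6 ranked 69, B8 ranked 105 and C4 ranked 59, and had NANOG at rank 124, OCT4 at rank 302 and MED1 at rank 113. A MED12 peak of rank 41 of 1071 was centred 140 bp from that A6 peak, and joining at 100 bp left it out. Another Smad7 place, 22.5 kb upstream, had all 5 factors but SIM2 in A6 alone, at rank 1561 of 2387, with MED12 at rank 83, NANOG at rank 1277, OCT4 at rank 940 and MED1 at rank 727 of 762. A second Smad7 site, 97.5 kb from the start in an intron of Ctif, was also in all 3 clones, with ranks of 98, 83 and 126, and had NANOG and MED12. Fst, which encodes the activin and BMP antagonist follistatin, had a site in all 3 clones 52.3 kb from its start, with NANOG and OCT4 and nearest to the start of Ndufs4.

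Among the targets, the homeobox gene Msx2 had a site 11.4 kb from its start with NANOG, where A6 ranked 394 of 2387, B8 1991 of 2137 and NANOG 556 of 14815. A MED12 peak of rank 790 of 1071 lay beside this site, 11.7 kb from the start, and joining at 100 bp left it out. Id4, the remaining Id gene, had no site in 2 clones, and it was named after its values were seen, for comparison with Id1 to Id3. It had 5 NANOG peaks, 1 OCT4 peak and 1 A6 peak that ranked 1744 of 2387. The OCT4 peak of Id4, 8.58 kb upstream, lay with a NANOG peak that ranked 2418. The Id family therefore ranged from Id3, with SIM2 listed in 3 clones, through Id2 with 2 clones and Id4 with 1, to Id1 with none.

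**Figure D5:**
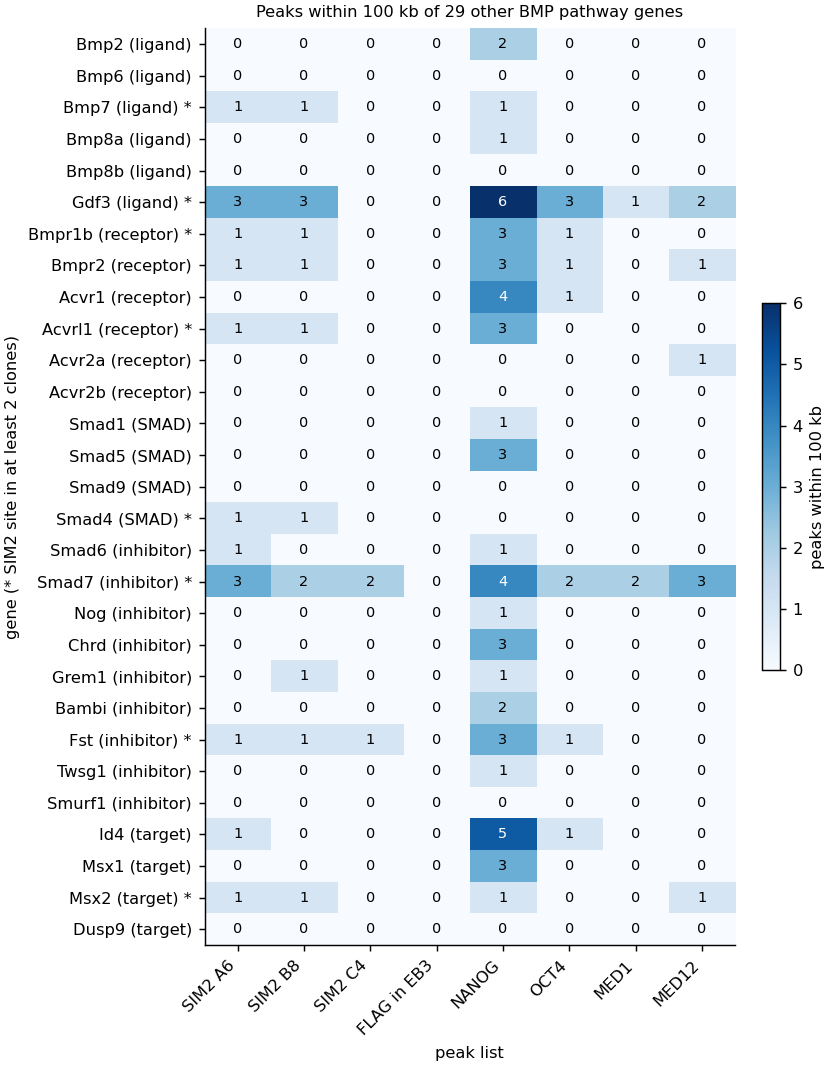
Number of peaks of each list (columns) within 100 kb of 29 other BMP pathway genes (rows, grouped as ligands, receptors, SMADs, inhibitors and targets); darker cells hold more peaks and an asterisk marks a SIM2 site in at least 2 clones. Smad7 has peaks in 7 lists and Gdf3 in 6, and the EB3 column is 0 throughout.

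For the 3 genes with peaks in at least 4 lists, the protein-coding genes with the most similar pattern were found by the Euclidean distance of log2(1 + summed normalized tag count) over the 8 lists. Closest to Id3 were Pus10, at a distance of 0.625, and Ildr1, at 0.632. Closest to Bmp4 were Daxx and Cd320, both at 0.524, which had equal sums in every list. Both lie on chromosome 17 and may share the same peaks, so they may not be separate matches. Closest to Bmpr1a were Cckar, at 0.634, and Cass4, at 0.694. At Id3 the summed normalized tag counts reached 34.8 for A6, 10.9 for B8, 5.9 for C4, 44.1 for NANOG, 9.5 for OCT4 and 9.3 for MED12, and at Pus10 they were 29.1, 11.5, 4.4, 41.8, 7.0 and 8.0. At Bmp4 the sums were 16.3 in A6, 38 for NANOG, 3.8 for OCT4, 9.5 for MED1 and 6.0 for MED12, and at Daxx they were 13.7, 28.7, 4.4, 8.2 and 6.0.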

How the data were processed

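Each immunoprecipitation gave 1 peak list. The authors mapped reads to mm9 with BWA and called peaks with HOMER against input DNA. In the deposited lists the normalized tag count is a depth-scaled signal, the caller's score is a separate score, total tags are whole read counts (not whole, and so a signal, in A6, OCT4 and EB3), and the fold over input is a ratio. Other ChIPs named in the study were not analysed here. Library totals were not used here, so the tags of each peak give its precision.

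Peak centres were compared with gene bodies of GENCODE vM1 on mm9. Centres within 100 bp of the next were joined, and clone sites with an EB3 centre within 100 bp were removed. Ranks are by normalized tag count, with the highest as 1. Sequence was read from NCBIM37 (mm9). The linking was run on simulated peaks planted close together at places far apart. Borderline distances, such as those at Id3, Bmp4 and Bmpr1a, were not simulated. Python 3.11.15, pandas and scipy were used. Members and lists were chosen with earlier results of these data known. The genes named were the 5 members, the pathway genes with a SIM2 site in at least 2 clones, the 2 genes most alike in summed tag count to each member with peaks in at least 4 lists, and the nearest gene where it was not the member. Id4 and Bmpr2 were added after their values were seen. Alternatives varied the window, the joining, the measure of rank, the fold over input and the clones. No test was made.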

Additional observations from a re-analysis of the deposited data

How the results depend on the processing

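The 37 peaks at the 5 genes became 61 within 200 kb and 13 when only peaks at least 8 times the input were kept. That stricter threshold left 0 of the 3 SIM2 sites in at least 2 clones, 0 of the 4 MED12 peaks and 2 of the 6 places with at least 2 factors. The median fold over input was below 8 in every list, from 4.71 in MED1 to 7.15 in A6. The threshold thus removed most peaks of each list over the genome. How many sites, MED12 peaks and places it left over the genome is not given here. The losses at the 5 genes therefore have no share of all genes beside them. Leaving out 1 clone at a time gave 0 to 2 SIM2 sites in at least 2 clones at the 5 genes, with 0 without A6, 1 without B8 and 2 without C4, and 6 places with at least 2 factors each time. The 8 of 29 pathway genes with a SIM2 site became 2 to 8, with 2 without A6, 2 without B8 and 8 without C4. Over the genome, 346 of the 1229 sites were in all 3 clones and 13 in B8 and C4 only. Sites of these 2 kinds can keep 2 clones without A6. Whether the dependence on A6 was particular to these genes was not tested. The other 22 of 30 alternatives kept the value within 1.5 times. For the counts of each list at the 5 genes, 12 of 32 alternatives moved beyond that. Single peaks could change standing with the measure of rank, as B8 did at Id2 and at the Id3 distal place. A second mm9 annotation was not run. No paired analysis was possible because no result comes from a test. Depth limits the weakest peaks, which held 10 tags.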
